A study of Mus musculus with 6 samples.

Results

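The mitochondrial carriers of the Slc25 family were examined in the epithelium and the mesenchyme of the small intestine of mouse embryos. The members were all probe sets whose platform gene symbol was Slc25a followed by a number. This rule gave 44 genes with 93 probe sets, out of 18161 genes and 45037 probe sets tested. One further probe set, which named Slc25a37 together with another gene, was left out. Of the genes, 21 had 1 probe set and 23 had several, and in 8 of the 23 some probe sets were called and others were not. A mean log2 value of at least 7 in 1 or both tissues was reached by 41 of the 44 genes. The 3 genes below that level in both tissues were Slc25a31, Slc25a41 and Slc25a54.

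The inner mitochondrial membrane is closed to most metabolites, and Slc25 carriers are the proteins that exchange nucleotides, phosphate, organic acids, amino acids, acylcarnitines and cofactors across it. Many transport steps are covered by several paralogs with a similar substrate and a different tissue distribution, such as the ADP/ATP carriers that bring ADP into the matrix and release ATP. In the absorptive epithelium of the intestine before weaning, mitochondria also house part of citrulline synthesis and fatty acid oxidation, and both pathways need carriers.

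The epithelium group and the mesenchyme group each held 3 arrays, called A, B and C, of tissue from E18.5 embryos (late gestation) of C57BL/6 females. The labels name no genetic change and no treatment. Opened intestines had been held for 9 hours at 4 °C in Cell Recovery Solution, a non-enzymatic reagent that lets the epithelium come off, and each array carried RNA of tissue pooled from 3 embryos. Of 6 pools made per tissue, 3 were put on arrays after RT-PCR for tissue markers, so the spread between arrays is that of selected pools. Both groups are mixtures of cell types, and the mesenchyme comprised all of the gut wall left after the epithelium came off.

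Each value is the log2 expression level of a probe set, and each difference below is epithelium minus mesenchyme on that scale, so that 1 stands for a 2-fold higher level. A gene was called at a limma adjusted p (Benjamini-Hochberg over all genes) under 0.05 together with a difference of at least 1 in size. Array medians were 8.1 to 8.6 in epithelium and 8.5 to 8.7 in mesenchyme. Correlations between arrays were 0.978 to 0.984 within a tissue and 0.773 to 0.813 between tissues. The summed level of 6 epithelial markers (Vil1, Epcam, Cdh1, Cdh17, Krt20 and Krt8) was 15.83 to 16.25 in epithelium and 11.35 to 12.08 in mesenchyme on the log2 scale, and all 6 were called higher in epithelium. The sum of 6 mesenchymal markers (Vim, Col1a1, Col3a1, Pdgfra, Actg2 and Myh11) was 9.55 to 10.13 in epithelium and 16.61 to 16.69 in mesenchyme, and all 6 were called higher in mesenchyme. In such bulk samples fewer cells of a type and less RNA per cell cannot be told apart.

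Of the 44 carrier genes, 11 were called, which is 25% against 24.1% of all genes. Higher in epithelium were 7 of them, against a background of 8.19% of all genes: Slc25a15, Slc25a13, Slc25a34, Slc25a1, Slc25a20, Slc25a10 and Slc25a3. Higher in mesenchyme were 4, against a background of 15.9%: Slc25a4, Slc25a27, Slc25a12 and Slc25a17. The other 33 genes were not called. By probe set, 28 of 93 were called against 21.5% of all probe sets, with 19 higher in epithelium (background 5.98%) and 9 higher in mesenchyme (background 15.5%). Arrays of the tissues did not overlap for 21 carrier genes, 14 with epithelium above and 7 with mesenchyme above. Of all 18161 genes 46.5% had arrays that did not overlap, 2905 with epithelium above and 5533 with mesenchyme above. The split of the calls by direction depended on the scaling and on 1 array. With the spike-in controls as the base of the scaling, and likewise without epithelium B, 5 genes were called higher in epithelium and 5 higher in mesenchyme. With equal array medians or ribosomal protein genes as the base, 10 and 4 genes were called in these directions. By probe set the split was 13 and 13 with the spike-in base and 14 and 13 without epithelium B. The spike-in controls averaged 9.80 on mesenchyme B and 10.56 to 10.77 on the other arrays. Calls that change with the spike-in base, here and below, therefore rest mostly on the shift of mesenchyme B. The share of carriers called in either direction was near that of all genes, and the differences ran from 3.60 for Slc25a15 to -2.93 for Slc25a4.

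**Figure D1:**
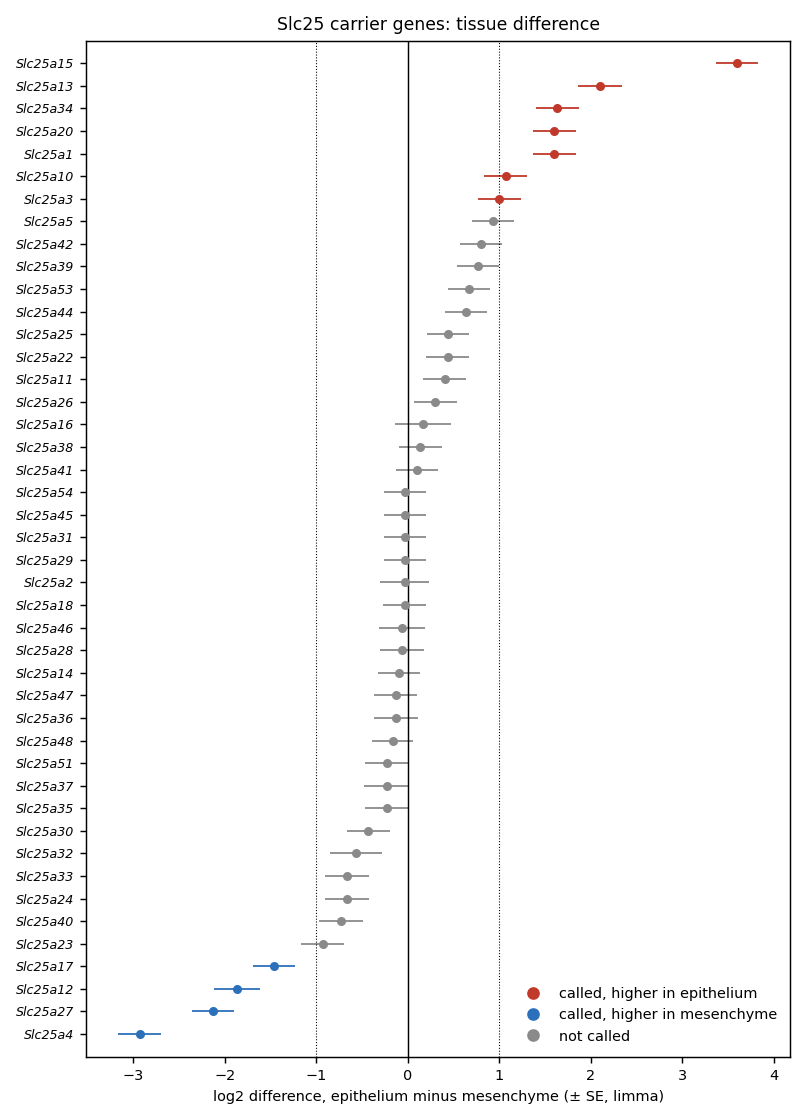
Log2 difference, epithelium minus mesenchyme, of the 44 carrier genes (x axis; points are limma estimates, bars their standard error), ordered by size, with dotted lines at a 2-fold difference. The 7 genes called higher in epithelium lie at or beyond the right line, the 4 called higher in mesenchyme beyond the left line, and 33 genes lie between.

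The middle of the family stood near 0, with a median difference of -0.03 over the carriers against -0.17 over all genes. Other scalings turned its sign or enlarged it, with 0.26 after quantile normalization, 0.18 after cyclic loess, 0.27 with equal array medians and 0.28 with ribosomal protein genes as the base, and -0.29 with the spike-in controls as the base. These scalings moved the median of all genes too, by 0.27, 0.21, 0.30, 0.32 and -0.26, and the carriers' median stayed 0.13 to 0.16 above that of all genes. The median size of the difference, sign aside, was 0.43 over the carriers and 0.43 over all genes.

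The ADP/ATP carriers showed opposite tissue patterns. Slc25a4 encodes the isoform known from heart and skeletal muscle, Slc25a5 the isoform of most proliferating and epithelial tissues, and Slc25a31 an isoform of the male germ line. Because Slc25a4 and Slc25a5 differ in direction, the 250 bases before their starts are shown from RefSeq promoter sequences of the mouse build GRCm38.p6, 5′ to 3′ on the gene's strand, with capitals marking matches to the motifs searched (listed further on) on either strand. The window of Slc25a4 lies at chr8:46211063-46211312 on the minus strand and that of Slc25a5 at chrX:36795347-36795596 on the plus strand.
Slc25a4: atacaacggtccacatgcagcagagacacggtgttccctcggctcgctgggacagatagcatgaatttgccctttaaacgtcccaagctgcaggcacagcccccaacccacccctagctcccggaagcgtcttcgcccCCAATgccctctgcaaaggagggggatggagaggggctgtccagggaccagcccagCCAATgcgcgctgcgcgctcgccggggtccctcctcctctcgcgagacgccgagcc
Slc25a5: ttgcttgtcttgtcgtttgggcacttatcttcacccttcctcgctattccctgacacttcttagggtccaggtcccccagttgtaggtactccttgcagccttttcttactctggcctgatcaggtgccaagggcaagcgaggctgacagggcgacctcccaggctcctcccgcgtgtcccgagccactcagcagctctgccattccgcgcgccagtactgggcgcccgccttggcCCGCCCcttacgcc
The Slc25a4 window holds 2 matches of CCAAT and none of the GC box, and the Slc25a5 window holds 1 match of the GC box, on the opposite strand, and none of CCAAT.

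Slc25a4 read 10.5, 11 and 10.5 in epithelium A, B and C, against 13.7, 13.5 and 13.6 in mesenchyme A, B and C. The 3 mesenchyme arrays were close together and all lay far above the epithelium. The difference was -2.93 ± 0.23 (SE, n = 3 each; limma adjusted p = 1.93e-13), which is 7.64-fold higher in mesenchyme. Both other bright probe sets of the gene gave -2.90. The remaining one, a dim probe set with 5.9, 6.2 and 5.8 in epithelium against 6.8, 6.6 and 6.7 in mesenchyme, gave -0.73 and was not called. The platform marks probe sets that can match several transcripts or similar sequences with the suffixes a, s and x, and the 3 bright probe sets of Slc25a4 carry such a suffix. With suffix-free probe sets alone, the dim one stood for Slc25a4 and the call was lost.

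Slc25a5 went the other way and fell just short of the 2-fold limit with its brightest probe set. It read 14, 14.3 and 13.8 in epithelium, against 13.2, 13 and 13.1 in mesenchyme. The tissues did not overlap, and the difference was 0.93 ± 0.23 (SE, n = 3 each; limma adjusted p = 0.000998). Of the 8 probe sets of the gene, 7 were called higher in epithelium with differences of 1.13 to 1.67. The largest, 1.67, came from a probe set with 13.9, 14.2 and 13.8 in epithelium, against 12.4, 12.1 and 12.4 in mesenchyme. Its suffix-free probe set read 12.4, 12.9 and 12.1 in epithelium, against 10.9, 10.8 and 10.9 in mesenchyme (1.60). How far probes of these paralogs also bind each other's transcripts was not tested. The mean over the probe sets was 1.35 and passed the call, as did the gene with equal array medians (1.23), with ribosomal protein genes as the base (1.25), without epithelium C (1.05) and with suffix-free probe sets. With the spike-in base the difference was 0.67 and the limma adjusted p 0.145.

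Slc25a31 read 5.5, 5.3 and 5.5 in epithelium, against 5.2, 5.8 and 5.4 in mesenchyme. These values lay near the lowest of the arrays, the tissues overlapped, and no call was made (difference -0.03). Set against each other within each array, Slc25a4 minus Slc25a5 averaged -3.37 ± 0.12 in epithelium and 0.50 ± 0 in mesenchyme (SD, n = 3 each). The difference between the genes therefore moved by -3.87 between the tissues, with no overlap. An exact permutation test over the 6 arrays gave p = 0.1, the smallest that 3 against 3 arrays allow. Since probes differ in how brightly they bind, the sign of such a within-array difference does not say which isoform is the more abundant, and only its change between tissues was read.

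**Figure D2:**
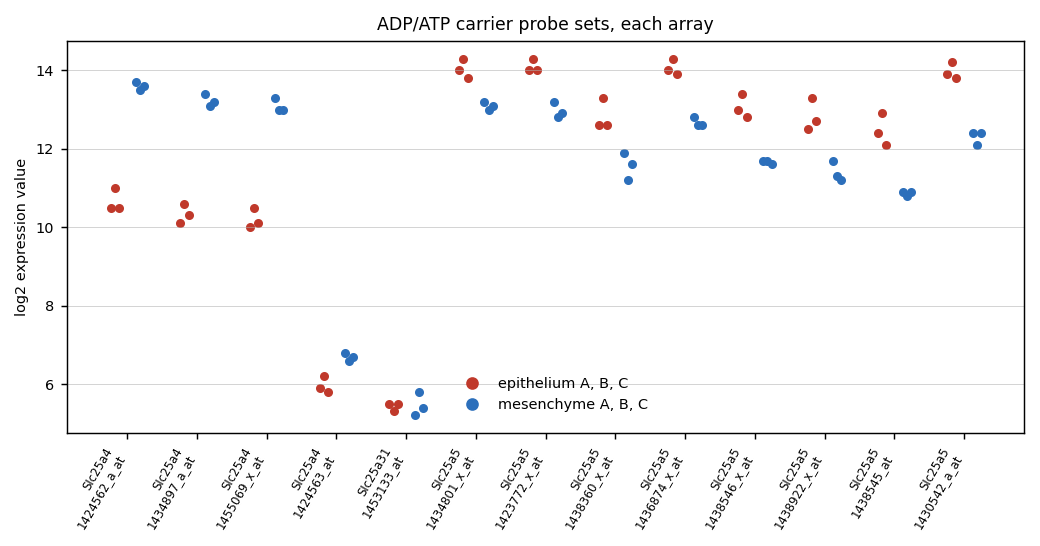
Log2 expression value (y axis) of every probe set of the 3 ADP/ATP carrier genes (x axis), with 1 point per array and the epithelium arrays left of the mesenchyme arrays. The Slc25a4 probe sets are higher in mesenchyme, the 8 Slc25a5 probe sets higher in epithelium, and Slc25a31 overlaps between tissues.

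Some of the genes listed as markers of striated muscle and of enteric neurons and glia also differed between the groups. Of 10 striated muscle markers measured, 3 were called higher in mesenchyme (background 15.9%), Tnnt2 (-5.47), Actc1 (-2.60) and Ckm (-1.57). Acta1, the actin of skeletal muscle, pointed the other way without a call (0.90, limma adjusted p = 0.00505), with 9.7, 9.8 and 9.6 in epithelium against 9.3, 8 and 9.1 in mesenchyme. The summed level of all 10, in which the bright Actc1 and Tnnt2 weigh most in mesenchyme, on the log2 scale was 11.55 to 11.72 in epithelium and 13.21 to 13.28 in mesenchyme. The defining genes Myog, Myh3 and Myh8 were not called and read 5.6 to 8.8. Of 9 markers of enteric neurons and glia, 6 were called higher in mesenchyme (background 15.9%). The largest differences were those of Uchl1 (-5.17), Fabp7 (-4.57), Elavl4 (-4.00) and Snap25 (-3.90). The other 3 were not called, Sox10 (-0.83, without overlap), Ret (-0.40, with overlap) and S100b. S100b pointed the other way (0.17, with overlap). The summed log2 level of all 9 was 11.23 to 11.55 in epithelium and 13.57 to 13.68 in mesenchyme. Both sums were higher in mesenchyme, as were Slc25a4 and, below, Slc25a12 and Slc25a27. The same held for the smooth muscle markers Actg2 (-7.23) and Myh11 (-6.57). The part of any of these cell types in the carrier results was not tested.

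The phosphate carrier and the calcium-regulated ATP-Mg/phosphate carriers were split. Slc25a3, the carrier that brings phosphate into the matrix for ATP synthesis, read 14.2, 14.5 and 14.2 in epithelium, against 13.6, 13.1 and 13.2 in mesenchyme. The tissues did not overlap, and the difference of 1.00 ± 0.23 (SE, n = 3 each; limma adjusted p = 0.000508) was exactly at the 2-fold limit, with 1.10 at the second probe set. The call was lost after quantile normalization (0.95), after cyclic loess (0.91), with the spike-in base (0.74), and without epithelium B (0.90), mesenchyme B (0.90) or mesenchyme C (0.95). None of the 4 ATP-Mg/phosphate carriers, which adjust the adenine nucleotide pool of the matrix, was called. Slc25a23 (-0.93) and Slc25a24 (-0.67) had all epithelium arrays below all mesenchyme arrays, Slc25a25 (0.43) had them above with its brightest probe set, and the dim Slc25a41 (0.10) overlapped. The other probe sets of Slc25a25 gave 0.43 and -0.20, both with overlap, and the mean was 0.22. Slc25a23 passed the call with the spike-in base (-1.19) and without epithelium C (-1.03) or mesenchyme C (-1.05).

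All 3 carriers of organic acids measured had every epithelium array above every mesenchyme array, as 2905 of all 18161 genes did, and 2 were called. Slc25a1 exports citrate, the source of cytosolic acetyl-CoA for lipid synthesis. It read 12.1, 12.8 and 12.4 in epithelium, against 10.8, 11 and 10.7 in mesenchyme, a difference of 1.60 ± 0.23 (SE, n = 3 each; limma adjusted p = 4.64e-07). Slc25a10, the dicarboxylate carrier that exchanges malate and succinate for phosphate, read 11.3, 11.9 and 11.4 in epithelium, against 10.5, 10.5 and 10.4 in mesenchyme. Its difference was 1.07 ± 0.23 (SE, n = 3 each; limma adjusted p = 0.000236), with 1.10 at the second probe set, and the call was lost without epithelium B (0.88) and with the spike-in base (0.81). Slc25a11, the oxoglutarate carrier of the malate-aspartate shuttle, read 11.5, 12 and 11.4 in epithelium, against 11.3, 11.1 and 11.3 in mesenchyme and was not called (0.40). Within arrays, Slc25a10 minus Slc25a11 averaged -0.10 ± 0.10 in epithelium and -0.77 ± 0.15 in mesenchyme (SD, n = 3 each), a shift of 0.67 without overlap (exact permutation p = 0.1, the smallest possible).

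The aspartate/glutamate carriers gave a second pair of paralogs with opposite patterns. Both proteins release aspartate from mitochondria in the malate-aspartate shuttle. Slc25a12 encodes aralar, known from brain and muscle, and Slc25a13 encodes citrin, known from liver. Their upstream windows are shown for the same reason as those of the ADP/ATP carriers. The Slc25a12 window is chr2:71367756-71368005 and the Slc25a13 window chr6:6217174-6217423, both on the minus strand of GRCm38.p6, again from RefSeq with motif matches in capitals.
Slc25a12: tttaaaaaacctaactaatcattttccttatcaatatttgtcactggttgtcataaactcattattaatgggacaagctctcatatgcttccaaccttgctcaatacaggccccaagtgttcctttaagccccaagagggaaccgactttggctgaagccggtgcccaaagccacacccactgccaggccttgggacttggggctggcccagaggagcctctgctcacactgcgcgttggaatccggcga
Slc25a13: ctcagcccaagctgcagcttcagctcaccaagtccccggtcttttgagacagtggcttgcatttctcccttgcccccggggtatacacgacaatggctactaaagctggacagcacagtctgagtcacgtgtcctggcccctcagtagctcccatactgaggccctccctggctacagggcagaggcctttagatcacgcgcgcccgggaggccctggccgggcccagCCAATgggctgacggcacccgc
The Slc25a13 window has 1 match of CCAAT, and the Slc25a12 window has no match of any motif searched. Their shares of G and C bases were 49.6% for Slc25a12 and 62.8% for Slc25a13, against 64.8% for Slc25a4, 61.6% for Slc25a5 and a median of 52.4% over all windows.

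Slc25a13 read 10.6, 11.3 and 10.6 in epithelium, against 8.8, 8.6 and 8.8 in mesenchyme. Its difference was 2.10 ± 0.24 (SE, n = 3 each; limma adjusted p = 1.78e-09), a 4.29-fold higher level in epithelium. Slc25a12 read 7.6, 8.6 and 7.8 in epithelium, against 10.1, 9.7 and 9.8 in mesenchyme. Neither gene overlapped between tissues, although epithelium B stood above the other epithelium arrays for both. The Slc25a12 difference was -1.87 ± 0.25 (SE, n = 3 each; limma adjusted p = 6.59e-08) with its brightest probe set, whereas the other probe sets gave -0.50 and -0.23 and were not called. The mean over its probe sets, -0.87, did not pass the 2-fold limit.

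Within arrays, Slc25a12 minus Slc25a13 averaged -2.83 ± 0.15 in epithelium and 1.13 ± 0.15 in mesenchyme (SD, n = 3 each). The shift of -3.97 was without overlap (exact permutation p = 0.1, the smallest possible), and it was -2.97 with the mean of each gene's probe sets. The glutamate carriers Slc25a22 (0.43) and Slc25a18 (-0.03), which take up glutamate with a proton, overlapped between tissues and were not called. Of the 4 enzymes that run the malate-aspartate shuttle on either side of the membrane, 1 was called, against 24.1% of all genes. Got1, the cytosolic aspartate aminotransferase, was higher in epithelium (1.20), and Got2 (0.57), Mdh1 (0.83) and Mdh2 (0.83) were not called. With equal array medians or the ribosomal base 3 of the 4 were called, and with the spike-in base 0.

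**Figure D3:**
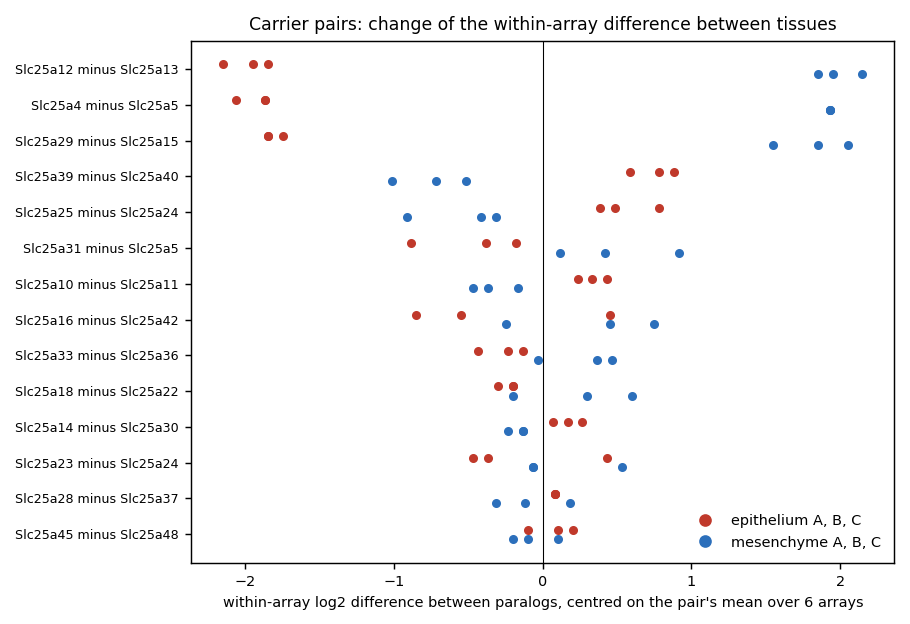
Within-array log2 difference between 2 carriers, centred on each pair's mean over the 6 arrays (x axis), for 14 pairs of related carriers, with 1 point per array and equal values drawn on top of each other. The pairs Slc25a12 and Slc25a13, Slc25a4 and Slc25a5, and Slc25a29 and Slc25a15 are the widest apart between tissues. In the last of these, Slc25a29 itself differed by only -0.03. Of the 14 pairs, 9 do not overlap.

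Among the carriers of other amino acids, Slc25a15 was the 1 called gene of 6. It exchanges ornithine for citrulline across the inner membrane and is best known from the urea cycle of the liver. It read 12.8, 13.2 and 12.9 in epithelium, against 9.6, 9.3 and 9.2 in mesenchyme, and its tissues were far apart. The difference of 3.60 ± 0.23 (SE, n = 3 each; limma adjusted p = 6.60e-16), a 12.1-fold higher level in epithelium, had the largest size of the family, and the second probe set gave 2.77. Slc25a29, a carrier of basic amino acids including ornithine, read 9.5, 9.9 and 9.7 in epithelium, against 9.7, 9.7 and 9.8 in mesenchyme. Its tissues overlapped (-0.03), and all 5 of its probe sets lay between -0.10 and -0.03. Within arrays, Slc25a29 minus Slc25a15 moved by -3.63 between tissues, with no overlap (exact permutation p = 0.1, the smallest possible).

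The remaining carriers of that group were not called by their brightest probe sets. Slc25a44, a carrier of branched-chain amino acids, gave 0.63 there, and its other probe sets gave 1.07, which was called, and -0.17. Slc25a26, which imports S-adenosylmethionine, gave 0.30, and Slc25a38, which is needed for glycine import in haem synthesis, gave 0.13. Slc25a2, an ornithine carrier, gave -0.03.

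Most genes of citrulline and ornithine metabolism were, like Slc25a15, higher in epithelium. Of 10 measured, 7 were called, all in that direction (background 8.19%), with a median difference of 2.12 against -0.17 over all genes. Otc, which makes citrulline from ornithine in the matrix, gave 5.50. Cps1, which supplies its carbamoyl phosphate, gave 4.40, and Nags, which makes the activator of Cps1, gave 3.03. Aldh18a1, on the route from glutamate to ornithine, gave 2.83. The other 3 were not called: the arginases Arg1 (-0.43) and Arg2 (0.10), and Glud1 (-0.53), glutamate dehydrogenase, which had every mesenchyme array above every epithelium array. Several of these genes are also liver genes, and 5 of 11 hepatocyte markers were called higher in epithelium (background 8.19%). Their summed log2 level, in which the bright Afp and Ttr weigh most in epithelium, was 14.31 to 14.64 there and 11.92 to 12.45 in mesenchyme. The other 6 markers were not called. Of these, 2 pointed the other way, Cyp2e1 (-0.87, every mesenchyme array above every epithelium array) and Hpx (-0.47, with overlap). The defining marker Alb was not called and read 8.7 to 9.1 in epithelium and 8.5 to 9.3 in mesenchyme, while Afp differed by 5.07. The part of these markers in the result was not tested.

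The carnitine/acylcarnitine carrier Slc25a20, which takes long-chain acyl groups into the matrix for oxidation, read 11.9, 12.4 and 11.9 in epithelium, against 10.5, 10.2 and 10.7 in mesenchyme. The tissues did not overlap. The difference was 1.60 ± 0.23 (SE, n = 3 each; limma adjusted p = 4.64e-07), and 1.90 at the second probe set. Its relatives Slc25a45 (-0.03), Slc25a47 (-0.13) and Slc25a48 (-0.17) overlapped between tissues and were not called.

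Carnitine shuttle enzymes were mostly higher in epithelium as well, with a median of 1.13. Of 7, 5 were called that way (background 8.19%) and 1 was called higher in mesenchyme (background 15.9%). Cpt2, which reforms the acyl-CoA on the matrix side, gave 2.00, the peroxisomal Crot gave 1.90 and the outer membrane enzyme Cpt1a gave 1.40. Bbox1, which makes carnitine, gave 1.13. Cpt1c, an isoform known from neurons, was the gene called higher in mesenchyme (-1.43). The count in epithelium was 3 with the spike-in base, without epithelium B or with the mean of each gene's probe sets. For citrate export and lipogenesis, 3 of 7 genes were called higher in epithelium (background 8.19%), Me1 (1.60), Idh1 (1.43) and Acss2 (1.30). Aco1 (0.43), Acaca (-0.17) and Fasn (0.40) were not called. Acly, which splits the citrate that Slc25a1 exports, was called higher in mesenchyme (-1.07), and that call was lost after cyclic loess, with equal array medians, with the ribosomal base, without epithelium A or mesenchyme A, and in both other choices of probe set.

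**Figure D4:**
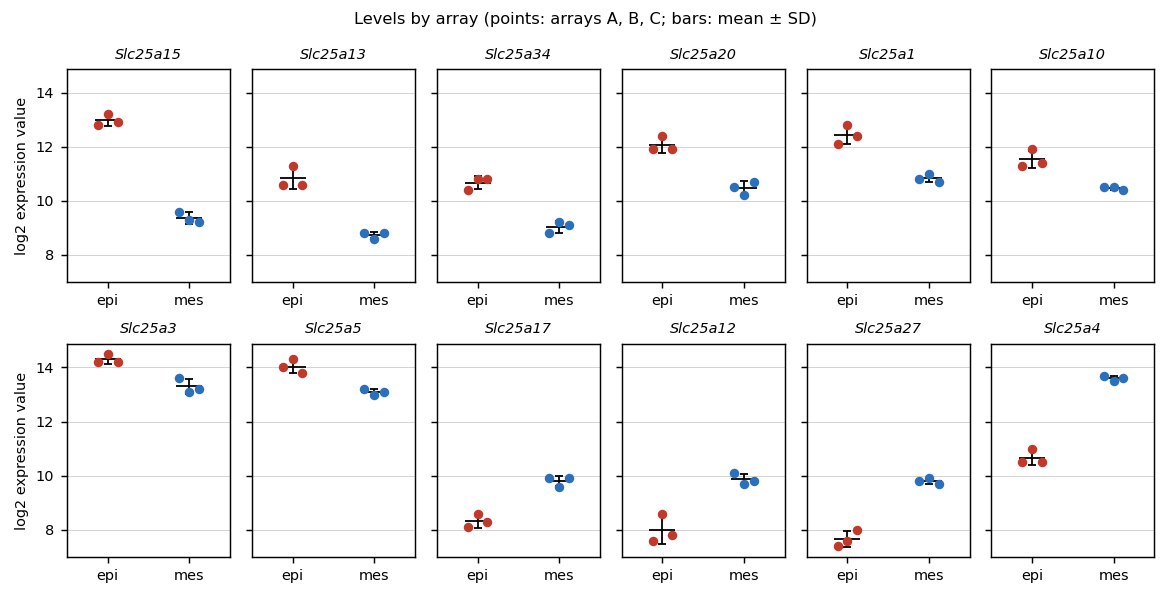
Log2 expression values (y axis) on each array for the 11 called carriers and Slc25a5, with epithelium (epi) left of mesenchyme (mes); points are arrays A, B and C, and bars are the mean and SD. The tissues do not overlap in any of the 12 panels.

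Carriers of cofactors and nucleotides included 1 called gene of 7. Slc25a17, a carrier of cofactors such as coenzyme A that sits in peroxisomes, read 8.1, 8.6 and 8.3 in epithelium, against 9.9, 9.6 and 9.9 in mesenchyme. The tissues did not overlap. The difference was -1.47 ± 0.23 (SE, n = 3 each; limma adjusted p = 1.67e-06), but the other probe set gave -0.10, and their mean of -0.78 did not pass the 2-fold limit. Slc25a42, which imports coenzyme A, had all epithelium arrays above the mesenchyme (0.80) without a call, and passed it after quantile normalization (1.02), after cyclic loess (1.01), with equal array medians (1.10) and with the ribosomal base (1.12). The pyrimidine nucleotide carriers Slc25a33 (-0.67) and Slc25a36 (-0.13), the NAD carrier Slc25a51 (-0.23), the folate and flavin carrier Slc25a32 (-0.57) and Slc25a16 (0.17) overlapped and were not called. Slc25a32 passed without epithelium B (-1.0).

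None of the 4 mitoferrins and glutathione carriers was called by limma, while Slc25a39 (adjusted p = 0.00634) and Slc25a40 (adjusted p = 0.0127), and neither mitoferrin, passed 0.05 by limma's p before and after adjustment. The mitoferrins, which bring iron to the sites of haem and iron-sulfur cluster synthesis, overlapped between tissues, with -0.07 for Slc25a28 and -0.23 for Slc25a37, the isoform of developing red cells. The carriers needed for mitochondrial glutathione import differed in opposite directions with their brightest probe sets, each without overlap: Slc25a39 gave 0.77 and Slc25a40 gave -0.73. Of the 5 probe sets of Slc25a39, 2 overlapped between tissues (0.17 and 0.13), their mean was 0.46, and the suffix-free one gave 0.13 (limma adjusted p = 0.695). Within arrays, Slc25a39 minus Slc25a40 moved by 1.50 between tissues (exact permutation p = 0.1, the smallest possible), by 1.19 with the mean over probe sets and by 1.03 after quantile normalization. Slc25a39 passed the call with equal array medians (1.07) and with the ribosomal base (1.08). Of 7 erythroid markers, only Alas2 was called (higher in mesenchyme, -1.70). Their summed log2 level was 10.89 to 11.25 in epithelium and 11.32 to 11.60 in mesenchyme, and their part in the mitoferrin values was not tested.

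Genes of the pathways around these carriers included several called in epithelium. Of 12 genes for iron, haem and iron-sulfur clusters, 4 were called higher in epithelium (33.3%, against 8.19% of all genes). These were Cpox (2.93), Tfrc (2.13), Nfs1 (1.07) and Abcb10 (1.03). Alas2, counted among the erythroid markers too, was the 1 called higher in mesenchyme (background 15.9%). Cpox works in haem synthesis, the transferrin receptor Tfrc takes up iron, and Abcb10 is a transporter of the inner membrane that is known to associate with Slc25a37. The count in epithelium was 2 with the spike-in base, without epithelium B or with the mean over probe sets. For glutathione synthesis and use, 3 of 8 genes were called, all higher in epithelium (37.5%, against 8.19% of all genes). They were Gss (2.13), Gclm (1.77) and Gpx1 (1.23).

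Among the carriers related to uncoupling proteins, which are known mainly from brain and kidney, Slc25a27 was called. It read 7.4, 7.6 and 8 in epithelium, against 9.8, 9.9 and 9.7 in mesenchyme, a difference of -2.13 ± 0.23 (SE, n = 3 each; limma adjusted p = 6.90e-10). Its other 3 probe sets gave -0.80, -0.50 and -0.23 and were not called, and the mean over all of them, -0.92, did not pass the 2-fold limit. Slc25a30 gave -0.43 with its brightest probe set and was not called, while 2 of its 5 probe sets were called higher in mesenchyme (-1.50 and -1.0). Slc25a14 gave -0.10.

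Of the members with no settled substrate, Slc25a34 was called. It read 10.4, 10.8 and 10.8 in epithelium, against 8.8, 9.2 and 9.1 in mesenchyme, without overlap. The difference was 1.63 ± 0.23 (SE, n = 3 each; limma adjusted p = 2.23e-07). Its close relative Slc25a35 overlapped between tissues (-0.23). The probe sets of Slc25a53 pointed in opposite directions: the brighter gave 0.67 without a call, and the other, with 5.6, 5.7 and 5.6 in epithelium against 6.9, 6.8 and 6.5 in mesenchyme, gave -1.10 and was called. Slc25a46, an outer membrane protein of mitochondrial dynamics, gave -0.07, and the dim Slc25a54 gave -0.03.

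Over the 14 pairs of related carriers, 9 showed no overlap of the within-array difference between tissues. Among all single genes 46.5% did not overlap, and the share among pairs of other genes was not computed. The exact permutation p was 0.1 for each of the 9 pairs, the smallest this design allows. After Benjamini-Hochberg adjustment over the pairs these became 0.156, so that no pair passed 0.05 and none could have. The shifts of the pairs not yet named were 1.10 for Slc25a25 minus Slc25a24 (0.97 with the mean over probe sets), -0.97 for Slc25a31 minus Slc25a5, -0.53 for Slc25a33 minus Slc25a36 and 0.33 for Slc25a14 minus Slc25a30. The remaining 5 pairs overlapped, with shifts of -0.63 for Slc25a16 minus Slc25a42, -0.47 for Slc25a18 minus Slc25a22, -0.27 for Slc25a23 minus Slc25a24, 0.17 for Slc25a28 minus Slc25a37 and 0.13 for Slc25a45 minus Slc25a48. The shifts of Slc25a29 minus Slc25a15 and Slc25a31 minus Slc25a5 came almost wholly from the second gene. Slc25a29 and Slc25a31 each differed by only -0.03 between tissues.

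Mitochondrial genes outside the symbol rule, and genes of phosphotransfer, gave the setting of these values. Of 23 genes of the outer membrane, protein import and matrix, 2 were called, both higher in epithelium (8.70%, near the 8.19% of all genes). They were Cs (1.40) and Immt (1.17), and the median was 0.27. This count was 5 with equal array medians or the ribosomal base, and 1 with the spike-in base, without epithelium B and in both other choices of probe set. Of 17 ATP synthase genes, 3 were called higher in epithelium (17.65%, against 8.19% of all genes). These were Atp5g1 (1.20), Atp5md (1.03) and Atp5c1 (1.00), and the median was 0.53. No ATP synthase gene was called with the spike-in base, and 1 was called without epithelium B or mesenchyme B and in both other choices of probe set. Of 9 genes of purine and creatine phosphotransfer, 5 were called (55.6%, against 24.1% of all genes). These genes pass on the energy of the ATP that Slc25a4 and Slc25a5 release. The mitochondrial creatine kinases Ckmt1 (4.47) and Ckmt2 (2.17) were higher in epithelium, and the hexokinases Hk1 (-4.00) and Hk2 (-1.80) and the muscle creatine kinase Ckm (-1.57), also one of the striated muscle markers, were higher in mesenchyme, where 5 genes were called with the spike-in base. The 5 relatives of the family outside the symbol rule were not called by limma, although Mtch1 and Mtch2 passed 0.05 by its p before and after adjustment, with 0.93 for Mtch2, -0.97 for Mtch1, 0.10 for Ucp1, -0.03 for Ucp3 and -0.33 for the pyruvate carrier subunit Mpc1. Of these 5, 1 was called higher in epithelium with equal array medians, with the ribosomal base and without epithelium A or C, and 1 higher in mesenchyme with the spike-in base and without epithelium B or mesenchyme C.

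**Figure D5:**
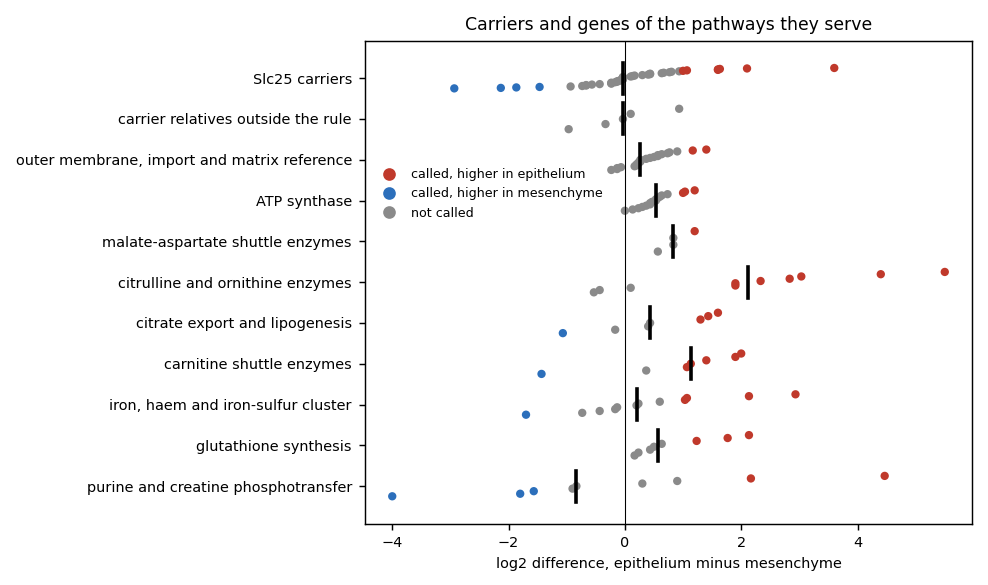
Log2 difference, epithelium minus mesenchyme (x axis), of the carriers and of genes in the pathways they serve (rows); points are genes, coloured by call, and black lines are medians. The citrulline and ornithine enzymes have a median of 2.12, the carriers one of -0.03, and the phosphotransfer genes include both tails.

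Promoter windows of 250 bases upstream were found for 34 of the 44 carrier genes in the RefSeq table, among 32851 windows in all. Each carrier was counted with 1 window, the first listed, whereas all windows were counted for the background. The windows outnumber the 18161 genes tested, so the 2 sets are unlike. Their shares were not tested and not adjusted for the content of G and C bases. The motifs searched on both strands were the TATA box (TATAAA), the GC box (GGGCGG), the CCAAT box (CCAAT), an E-box (CAGCTG), a nuclear receptor half-site (AGGTCA) and the core of the NRF1 site (GCATGCGC). The GC box was found in 24 of the 34 windows (70.6%), against 32.7% of all windows, and the TATA box in 1 (2.94%), that of Slc25a18, against 12.4%. CCAAT was found in 15 (44.1%), against 33.9%, and AGGTCA in 4 (11.8%), against 14%. CAGCTG was found in 3 (8.82%), against 13%, and GCATGCGC in 2 (5.88%), those of Slc25a31 and Slc25a54, against 2.26%. Of the called carriers with a window, Slc25a1, Slc25a3, Slc25a15, Slc25a17, Slc25a20 and Slc25a34 had a GC box and Slc25a4, Slc25a10, Slc25a12 and Slc25a13 had none, so that both kinds occurred in both directions of difference. A match is a run of letters in this window and was not read as a site of binding.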

How the data were processed

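Total RNA of 6 tissue pools was measured on Affymetrix mouse genome arrays, which hold sets of short 3'-biased oligonucleotide probes. The authors deposited log2 expression values per probe set, made with RMA per the submitters' processing notes, rounded to 0.1 and ranging from 4.6 to 15.2. Whether a between-array step was used is not given in the sources used here, and the values carry no detection calls. The number of arrays limits the precision.

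From 45101 probe sets, 64 controls were set aside. The platform annotation gave 1 gene symbol for 34945 probe sets, several for 932 and none for 9160. Each gene took the values of its brightest single-gene probe set (mean over the arrays). Tissues were compared with limma 3.58.1 (R 4.3.3; lmFit and eBayes, two-sided, no covariate, 4 residual and 31.71 prior degrees of freedom) on all 45037 probe sets, with Benjamini-Hochberg adjustment over genes or probe sets. Called means an adjusted p under 0.05 and a difference of at least 1. The procedure was tested on simulated data. Differences of dim probe sets may be understated. The limma SE and p-values set each difference against the spread between pools of 1 tissue. That spread was drawn mostly toward a value common to all probe sets (31.71 prior against 4 residual degrees of freedom). An SE given here is therefore not that of a gene's own arrays alone.

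Pairs of related carriers were compared by exact permutation of the 6 arrays, two-sided. Every carrier gene could be named. Array values were given for called carriers, the ADP/ATP carriers and partners in a pair with a called carrier. Of each pathway list up to 4 called genes per direction were named, and all of a list of 5 or fewer. The uncalled Arg1, Arg2, Glud1, Aco1, Acaca, Fasn, Alb and other marker genes were named after their values were seen. The members, lists and pairs were chosen with earlier results of these data known. All 44 symbols matched RefSeq names. The labels do not say whether the letters A, B and C pair the samples, and the main fit did not pair them. There were 17 alternatives, covering scaling, left-out arrays, a replicate block, the call rule, dim genes, the prior and the choice of probe set. Figures were drawn with matplotlib 3.10.9.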

Additional observations from a re-analysis of the deposited data

How the results depend on the processing

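Over the 17 alternatives no called carrier changed its direction, and 5 of the 11 called (Slc25a1, Slc25a13, Slc25a15, Slc25a20 and Slc25a34) and 28 of the 33 uncalled carriers kept their side under each setting that keeps the call rule. Of 745 values computed for single carriers, 24 newly passed and 12 no longer passed. Without the 2-fold limit, 20 carriers were called, 12 higher in epithelium and 8 higher in mesenchyme, together with 45 of their probe sets, 18 of these higher in mesenchyme, and 56 pathway genes in place of 36. This setting drops 1 of the 2 criteria. Averaging all probe sets of each gene, 1 carrier was called higher in mesenchyme in place of 4. Slc25a12, Slc25a17 and Slc25a27 each have other probe sets with smaller differences. These were not all dimmer than the chosen ones. In epithelium 1 such probe set of Slc25a12 averaged 8.63, against 8 for the chosen one. For Slc25a27 these means were 8.43 and 7.67. The median difference of the carriers was 0.26 after quantile normalization, 0.27 with equal array medians and 0.28 with the ribosomal base, in place of -0.03, since these scalings move the median of all genes. The spike-in controls averaged 9.80 on mesenchyme B and 10.56 to 10.77 on the other arrays. The values could not show whether the array letters pair the samples. Deviations of same-letter arrays correlated at -0.31, -0.15 and 0.12. Those of different letters correlated at -0.25 to 0.36, so the ranges overlap. With a replicate block, 11 carriers were called, 7 higher in epithelium and 4 higher in mesenchyme, and each carrier stayed on its side of the call. Of all genes, 4363 were called with the block in place of 4380. Detection calls are missing, so values of dim probe sets, such as those of Slc25a31, Slc25a41 and Slc25a54, can be background.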
